A study of Mus musculus with 8 samples.

Results

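The nuclear-encoded subunits of complexes II to V of the mitochondrial oxidative phosphorylation system were followed in the kidney of mice given bisphenol A (BPA), a compound of plastics with oestrogen-like activity, or vehicle. The members were the protein-coding genes whose symbols are Sdha to Sdhd or Cyc1, or begin with Uqcr, Cox4 to Cox8 or Atp5, as the deposited table spells them. This gave 49 of 54532 genes in the table, with 4 in complex II, 9 in complex III, 18 in complex IV and 18 in complex V. Of these, 46 averaged 0.5 FPKM or more (reads scaled by the length of the gene and the size of the library) and were tested. The other 3 were Cox7b2, which had at most 0.596 FPKM in any library, and Cox8c and the second Atp5o identifier (ENSMUSG00000116933), which had 0 reads in all 8 libraries.

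The libraries were made from polyadenylated RNA of kidney of ICR mice, an outbred stock, with 4 libraries of the group labelled BPA and 4 of the group labelled vehicle. The labels give no dose, duration, route, age or sex, and do not say whether each library came from its own animal, so the p-values speak only of the spread among these libraries. Recovered reads per library were 15944081 to 17351540. Markers of the proximal tubule, which makes up most of the kidney cortex, were high in every library (8 of 8 markers above 0, summed level 3386 to 4438 FPKM for vehicle, 3594 to 4922 FPKM for BPA). Some other kidney lists were less even. In vehicle replicates 1 to 4, podocyte markers summed to 43.2, 45.3, 12.5 and 10.4 and endothelial markers to 20.4, 21.6, 6.18 and 7.91 FPKM. Thick limb markers summed to 480, 513, 626 and 158 and principal cell markers to 124, 123, 242 and 106 FPKM. In BPA these lists had 29.2 to 52.2, 13.2 to 27.6, 355 to 667 and 92.2 to 121 FPKM. BPA replicate 4 had the highest sum of distal tubule markers (223 FPKM, against 68.2 to 146 elsewhere). It also had the highest sum of intercalated cell markers (81.0 FPKM, against 42.8 to 72.1 elsewhere), although Atp6v1g3 of that list was lowest there (7.44 FPKM). Red cell markers summed to 926 FPKM in BPA replicate 4, 919 in BPA replicate 2 and 233 to 592 in vehicle. Their part in member levels was not tested. Vehicle replicate 4 also held skeletal muscle markers (all 10 listed markers above 0, summed level 287.8 FPKM, against at most 1.55 FPKM elsewhere), and fat markers were highest in vehicle replicates 2 and 4. All 5 white fat markers were above 0 in these 2 libraries (summed level 64.8 and 237.5 FPKM) and also in vehicle replicate 3 and BPA replicate 3 (26.8 and 13.5 FPKM), and the other 4 libraries had 0 to 12.9 FPKM. BPA replicate 4 had 17174 genes above 0, against 19090 to 20845 in the other 7 libraries. Its reads from mitochondrial genes were 14.2% of the total, against 7.02% to 8.33% in vehicle and 9.66% to 9.85% in BPA replicates 1 to 3.

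Complex II (succinate dehydrogenase) passes electrons from succinate to ubiquinone, complex III (the cytochrome bc1 complex) passes them on to cytochrome c, and complex IV (cytochrome c oxidase) passes them to oxygen. Complexes III and IV pump protons across the inner mitochondrial membrane, and complex V (ATP synthase) uses the gradient to make ATP. Complex II is encoded by nuclear genes only, while complexes III, IV and V also hold subunits encoded by mitochondrial DNA. The proximal tubule depends on oxidative phosphorylation for its solute transport.

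The c ring of complex V, the rotor in the membrane, shows how closely related some members are. It is built from a single mature protein that 3 nuclear genes, Atp5g1, Atp5g2 and Atp5g3, encode with different import sequences. The last 225 coding bases of the APPRIS principal transcripts (GENCODE M21, GRCm38) are shown because the shares of these 3 genes are compared here and reads must be told apart at such positions. Capitals mark the 57 of 225 positions at which the 3 genes are not all alike.
Atp5g1: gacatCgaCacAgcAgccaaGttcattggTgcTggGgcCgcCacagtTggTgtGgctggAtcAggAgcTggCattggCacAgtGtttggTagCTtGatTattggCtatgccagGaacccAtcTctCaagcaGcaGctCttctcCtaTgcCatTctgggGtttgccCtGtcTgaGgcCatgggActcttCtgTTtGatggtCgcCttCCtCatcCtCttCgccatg
Atp5g2: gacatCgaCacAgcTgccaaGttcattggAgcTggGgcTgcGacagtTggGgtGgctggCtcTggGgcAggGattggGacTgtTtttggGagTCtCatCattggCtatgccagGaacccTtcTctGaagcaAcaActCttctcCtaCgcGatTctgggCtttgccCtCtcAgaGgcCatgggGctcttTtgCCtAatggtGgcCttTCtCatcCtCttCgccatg
Atp5g3: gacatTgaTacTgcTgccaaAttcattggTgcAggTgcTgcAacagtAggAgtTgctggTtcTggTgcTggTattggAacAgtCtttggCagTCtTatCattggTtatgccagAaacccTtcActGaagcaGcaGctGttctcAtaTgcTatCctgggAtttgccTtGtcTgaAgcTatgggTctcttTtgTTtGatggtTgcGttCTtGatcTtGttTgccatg
Of these 57 positions, 52 are the third base of a codon. Identity was 84.9% between Atp5g1 and Atp5g2, 80.0% between Atp5g1 and Atp5g3 and 78.7% between Atp5g2 and Atp5g3.

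In vehicle kidney, the members with the largest levels belonged to complexes V and IV. The authors' gene length was up to 11.8 times that of the principal transcript, so levels of different genes are also given on the length of the principal transcript. On that scale Atp5b, the catalytic beta subunit, had 1621 ± 154 (SD, n = 4), Atp5a1, the alpha subunit, 979 ± 90.2, Atp5g3 919 ± 131, Cox6a1 809 ± 103 and Cox4i1 785 ± 92.9 FPKM. On the deposited scale the order of the first pair was the reverse, with 771 ± 71.1 FPKM for Atp5a1 and 733 ± 69.7 FPKM for Atp5b, a gap within their SDs. The authors' length exceeded the transcript length most for Atp5l (11.8 times), Cox6c (5.89 times), Atp5j (4.22 times) and Atp5e (4.17 times), so their deposited levels are lower by these factors than on the transcript scale. The ranking of genes therefore depends on the length used, while a comparison of 1 gene between libraries does not.

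No member differed between BPA and vehicle at an adjusted p under 0.05 in limma, with or without BPA replicate 4. Over all 13376 tested genes 1 gene was called (0.00748%), and 2 without BPA replicate 4 (0.015%). The smallest adjusted p of a member was 0.408, for Atp5e. At an unadjusted p under 0.05, 1 member was lower (Atp5e) and 0 were higher, where all tested genes gave 6.83% lower and 4.18% higher. Without BPA replicate 4 these counts were 2 lower (Atp5e and Atp5g3) and 2 higher (Cox7a1 and Cox6c), where all genes gave 6.12% lower and 4.07% higher. The share of members at this threshold was thus near or below that of all genes.

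The direction was more uneven than the calls. With all 8 libraries, 41 of 46 tested members had a log2 change below 0 (against 52% of all tested genes), and the median change of the members was -0.26 log2 units against -0.012 for all tested genes. Without BPA replicate 4, 28 of 46 were below 0 (against 50.9% of all genes) and the median was -0.047. By complex, the median was -0.12 in complex II, -0.32 in complex III, -0.35 in complex IV and -0.14 in complex V with all libraries. Without BPA replicate 4 it was 0.021, -0.15, -0.077 and -0.015 in the same order. Within replicate numbers 1 and 2 the median over members was 0.049, and within numbers 3 and 4, which include BPA replicate 4, it was -0.56. Against the vehicle mean, the member medians of BPA replicates 1 to 3 were -0.043, -0.068 and -0.12. Those of vehicle replicates 1 to 4 were -0.015, -0.19, 0.17 and 0.014. Without BPA replicate 4 the median over all members was near 0, at -0.047, while that of complex III was -0.15. In bulk RNA, fewer cells that express these genes and less RNA per cell cannot be told apart.

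**Figure D1:**
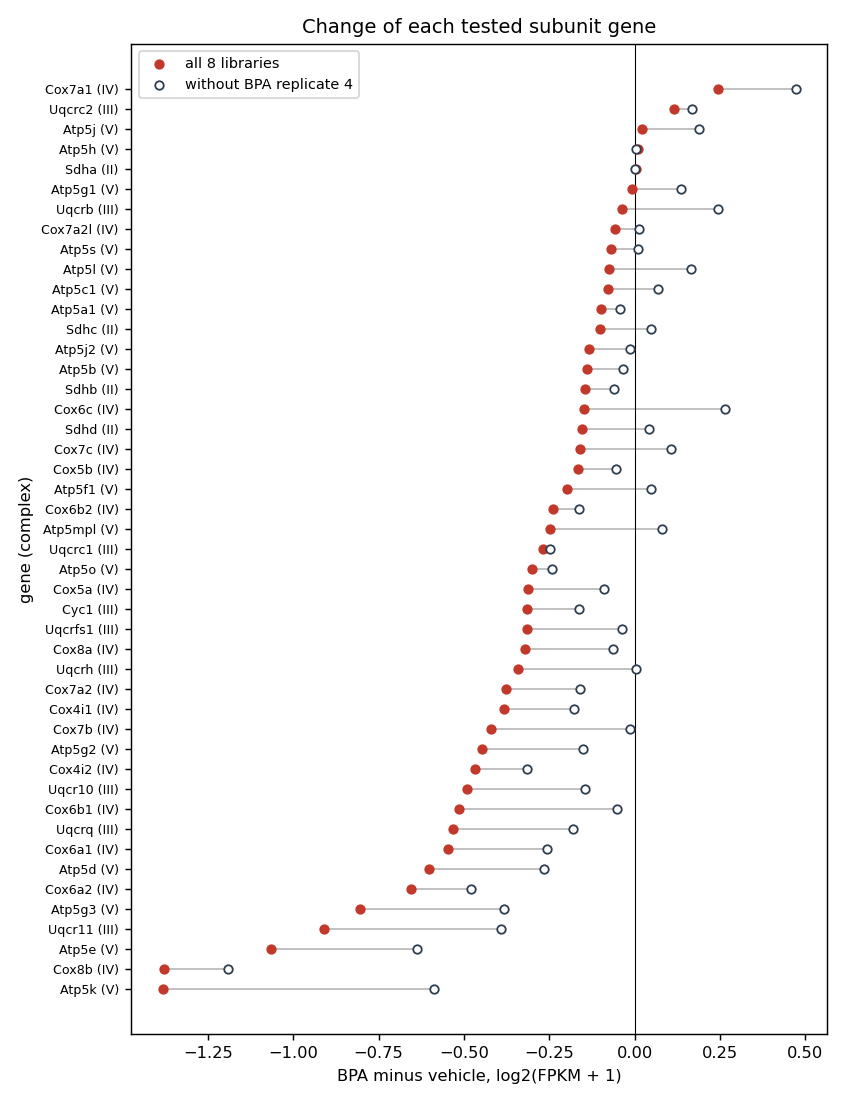
Change of each tested member between BPA and vehicle (x axis, difference of mean log2(FPKM + 1)), with genes on the y axis and the complex in parentheses. Filled points use all 8 libraries and open points leave out BPA replicate 4. Of the filled points 41 of 46 lie below 0, and of the open points 28 of 46.

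BPA replicate 4 was the lowest of the 8 libraries for 41 of 46 members (against 28% of all tested genes). Vehicle replicate 3 was the highest for 29 of 46 (against 15.6% of all genes). Against the mean of BPA replicates 1 to 3, BPA replicate 4 was lower for 44 of 46 members (against 52.5% of all genes), with Sdha and Atp5h as the exceptions. The median difference was -0.84 log2 units for members and -0.026 for all tested genes. Vehicle replicate 2 was likewise below the mean of the other vehicle libraries for 44 of 46 members, with a smaller median difference of -0.25. Vehicle replicates 1, 3 and 4 were below in this way for 26, 4 and 21 of 46. BPA replicates 1 to 3, against means that include BPA replicate 4, were below for 4, 6 and 7 of 46. For these libraries the share over all genes was not computed. Over the 359 tested protein-coding genes with transcripts of up to 750 bases, the median difference was -0.25 in vehicle replicate 2 and -0.73 in BPA replicate 4. Over all tested protein-coding genes it was -0.0088 and -0.010. The low values in these 2 libraries were thus shared by other genes with short transcripts. Cox4i2, Cox6a2 and Cox8b, which are low in kidney, were listed at 0 in BPA replicate 4. Among the 42 members that averaged 5 FPKM or more, BPA replicate 4 stood lowest for Atp5k (8.77% of the mean of the other 3 BPA libraries), Uqcr11 (22.9%), Cox6b1 (27.3%) and Atp5e (29.1%). These 4 genes encode small subunits, with transcripts of 371 to 618 bases.

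**Figure D2:**
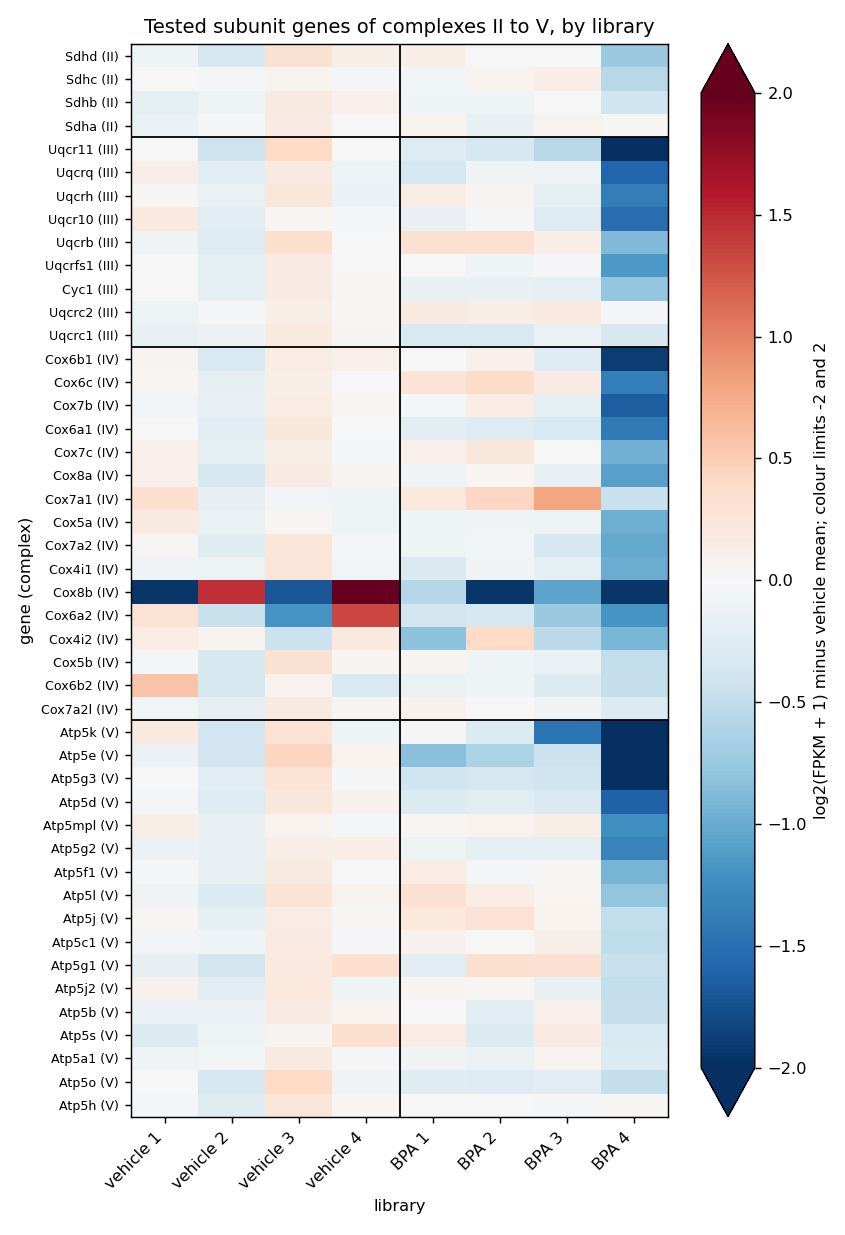
Level of each tested member (y axis, with its complex) in each of the 8 libraries (x axis), as log2(FPKM + 1) minus the mean of the 4 vehicle libraries. Blue is below and red above the vehicle mean, and colours stop at -2 and 2. The column of BPA replicate 4 is blue for nearly all members, and that of vehicle replicate 3 is red for most.

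Transcript length moved with these values. The median length of the principal transcript was 736 bases for members and 2836 bases for tested protein-coding genes. Over 11540 tested protein-coding genes with a known length, the difference of BPA replicate 4 from the other BPA libraries had a Spearman correlation of 0.48 with length, and over the 46 members one of 0.58. Over the coding genes, the same correlation for vehicle replicates 1 to 4, each against the others of its group, was 0.13, 0.35, -0.24 and -0.21. For BPA replicates 1 to 3, against means that include BPA replicate 4, it was -0.29, -0.40 and -0.090. A relation to length was thus not limited to BPA replicate 4, where it was largest. Genes share these libraries and are not independent, so all these correlations are descriptions. Among all coding genes the median difference was -0.78 for transcripts of up to 500 bases, -0.69 up to 750, -0.53 up to 1000, -0.34 up to 1500, -0.13 up to 2500 and 0.12 above 2500 bases. Members of the same classes had medians of -1.37 (7 genes), -1.02 (17), -0.47 (5), -0.78 (7), -0.32 (7) and -0.57 (3). The medians of members were below those of all coding genes in 5 of 6 classes. The value of the class above 2500 bases is that of Atp5g1, whose principal transcripts run from 596 to 4715 bases. After a correction for transcript length within each library, chosen after the data were seen, 31 of 46 members were below 0 with a median of -0.11. With this correction and without BPA replicate 4, 21 of 46 were below 0 and the median was 0.011. The part of transcript length in the low values of BPA replicate 4 was not tested further.

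**Figure D3:**
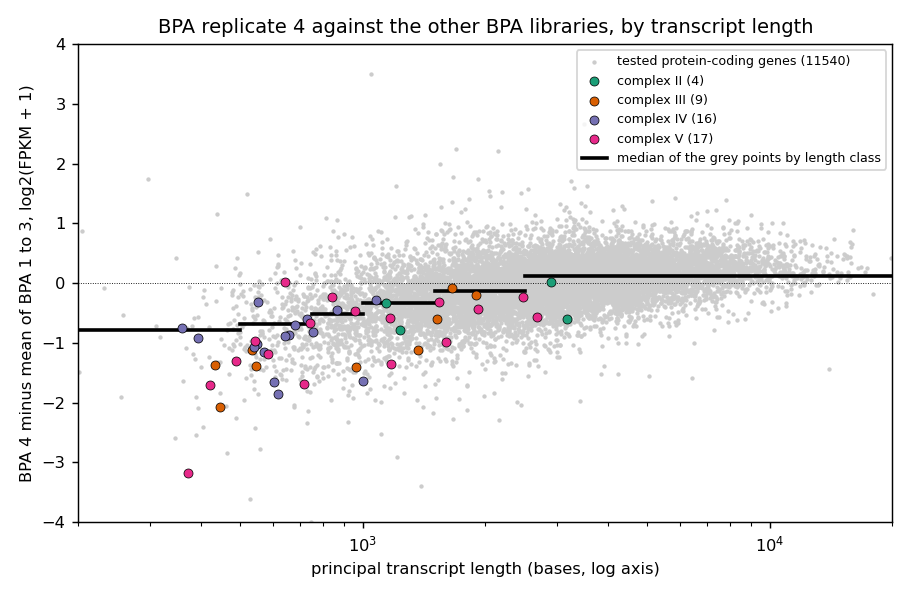
Difference of BPA replicate 4 from the mean of BPA replicates 1 to 3 (y axis, log2(FPKM + 1)) against the length of the principal transcript (x axis, bases, log axis). Grey points are 11540 tested protein-coding genes, coloured points the 46 tested members by complex, and black bars the median of the grey points in each length class. The bars run from -0.78 for the shortest to 0.12 for the longest class, and 44 of 46 members lie below 0.

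GC content, the share of G and C bases in the transcript, moved with the change without BPA replicate 4. The Spearman correlation of that change with GC was -0.71 over 46 members and -0.50 over 11540 coding genes. With transcript length it was 0.20 over members. The 3 members richest in GC (58.8% to 60.2%), Atp5d, Uqcr11 and Cox6a1, had changes of -0.26, -0.39 and -0.26, and the 3 poorest in GC (39.6% to 42.2%), Atp5s, Cox7b and Uqcrb, had 0.010, -0.014 and 0.25. With values corrected for GC within each library, 41 of 46 members were below 0 over all 8 libraries and the median was -0.20. The part of GC content in the differences without BPA replicate 4 was not tested.

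Summed over its members, complex II was at 627, 609.9, 783 and 707 summed FPKM in vehicle replicates 1 to 4 and 694, 654, 693 and 513 in BPA replicates 1 to 4. The group means were 681 ± 79.5 in vehicle, 639 ± 85.7 in BPA (SD, n = 4 each) and 681 ± 22.9 in BPA replicates 1 to 3 (SD, n = 3). BPA replicate 4 alone was at 75.4% of the vehicle mean, and BPA replicates 1 to 3 were at 99.9%. Complex III stood at 1813, 1561, 2013 and 1768 summed FPKM in vehicle replicates 1 to 4 and 1712, 1715, 1631 and 859 in BPA replicates 1 to 4. Here BPA replicate 4 was at 48.0% of the vehicle mean and BPA replicates 1 to 3 at 94.2%. For complex IV the values were 2770.1, 2339, 3108 and 2765 summed FPKM in vehicle replicates 1 to 4 and 2548, 2689.5, 2392 and 1196 in BPA replicates 1 to 4, which put BPA replicate 4 at 43.6% and BPA replicates 1 to 3 at 92.6% of vehicle. Complex V had 3029.9, 2842, 3629.8 and 3181 summed FPKM in vehicle replicates 1 to 4 and 2998, 2857, 3077 and 1962 in BPA replicates 1 to 4, with BPA replicate 4 at 61.9% and BPA replicates 1 to 3 at 93.9%. In all 4 complexes BPA replicate 4 was below every other library, while BPA replicates 1 to 3 lay between the lowest and the highest vehicle library in summed FPKM. As a percent of the FPKM of genes not encoded by mitochondrial DNA, BPA replicate 4 was again the lowest, at 92.1% of the vehicle mean for complex II and 58.6%, 53.2% and 75.6% for complexes III to V. On this scale the other BPA libraries were not all in the vehicle range. For complex V, BPA replicates 1 to 3 were at 0.920%, 0.880% and 0.893%, all below the lowest vehicle library at 0.924%. BPA replicate 3 was below vehicle in complex III (0.473%, lowest vehicle library 0.508%) and in complex IV (0.694%, lowest vehicle library 0.760%).

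**Figure D4:**
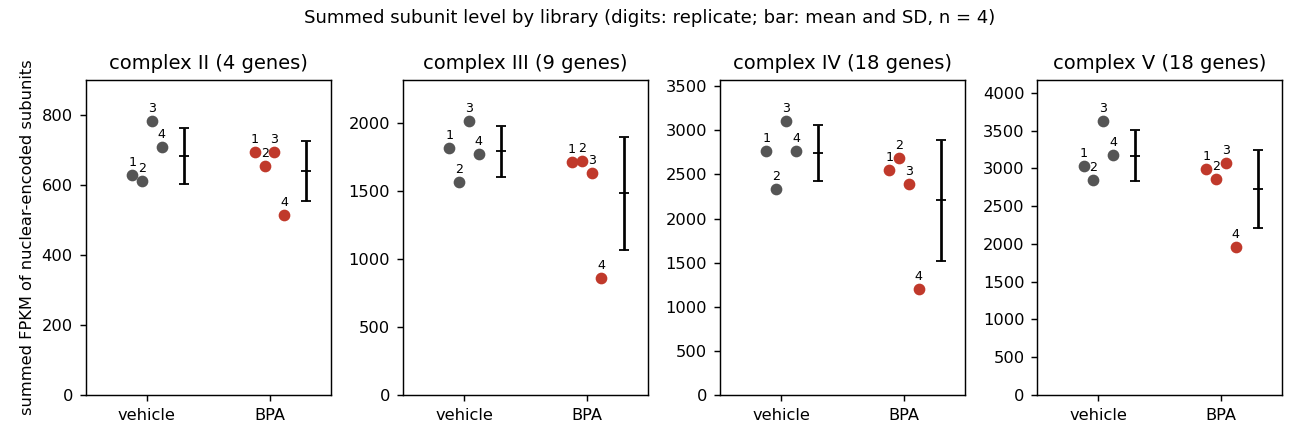
Summed FPKM of the nuclear-encoded subunits (y axis) of each complex in the 8 libraries (points, with the replicate number) by group (x axis), with the mean and SD of 4 libraries as bars. BPA replicate 4 is the lowest point in each panel, at 43.6% to 75.4% of the vehicle mean.

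In complex II, BPA replicate 4 was at 101% and 78.9% of the other BPA libraries for the catalytic subunits Sdha and Sdhb, and at 65.4% and 57.8% for the membrane anchors Sdhc and Sdhd. Sdha (chr13:74322254-74350280, minus strand), the flavoprotein that oxidizes succinate, had 163, 175, 201 and 179 FPKM in vehicle replicates 1 to 4 and 189, 161, 189 and 181 FPKM in BPA replicates 1 to 4. The groups overlapped and BPA replicate 4 was in the range of the others, with a change of 0.0052 (SE 0.117, limma adjusted p = 0.988). Sdhb, the iron-sulphur subunit, had 149.7, 159, 192 and 182 FPKM in vehicle replicates 1 to 4 and 160.0, 159, 169 and 128 FPKM in BPA replicates 1 to 4, a change of -0.15 (SE 0.137, limma adjusted p = 0.677) and -0.061 without BPA replicate 4. Sdhd, a membrane anchor, had 216, 179.7, 284 and 249 FPKM in vehicle replicates 1 to 4 and 250.3, 229.6, 227 and 136 FPKM in BPA replicates 1 to 4. BPA replicate 4 was the lowest library and vehicle replicate 3 the highest, and the change went from -0.15 (SE 0.222, limma adjusted p = 0.790) to 0.041 (SE 0.160, limma adjusted p = 0.940) when BPA replicate 4 was left out. Sdhc, the other anchor, had 98.4, 97.1, 105 and 97.5 FPKM in vehicle replicates 1 to 4 and 95.6, 104, 109 and 67.4 FPKM in BPA replicates 1 to 4, and its change likewise went from -0.10 (SE 0.158, limma adjusted p = 0.808) to 0.048 (SE 0.0909, limma adjusted p = 0.860). BPA replicate 4 stood in the range of the other BPA libraries for Sdha (transcript of 2900.0 bases) and below it for Sdhc (3171 bases). This is 1 pair of genes, and the part of transcript length was not tested on it. Per transcript length, vehicle levels were 334 ± 38.9 for Sdhb, 255 ± 22.9 for Sdha, 232 ± 44.6 for Sdhd and 102 ± 3.81 FPKM for Sdhc, and Sdha and Sdhd did not differ beyond their SDs.

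Complex III held catalytic subunits, core proteins and small subunits. The catalytic subunits are Cyc1 (cytochrome c1) and Uqcrfs1 (the Rieske iron-sulphur protein). Cyc1 had 189, 166, 211 and 191 FPKM in vehicle replicates 1 to 4 and 169.8, 171, 164 and 110.0 FPKM in BPA replicates 1 to 4, a change of -0.32 (SE 0.168, limma adjusted p = 0.495) and -0.16 without BPA replicate 4. Uqcrfs1 had 376, 332, 424 and 381 FPKM in vehicle replicates 1 to 4 and 378, 356, 368 and 169 FPKM in BPA replicates 1 to 4, a change of -0.32 (SE 0.258, limma adjusted p = 0.636) and -0.037 without BPA replicate 4. In both genes BPA replicate 4 lay far below the rest, and of the other BPA libraries only replicate 3 was under the lowest vehicle library, for Cyc1. The core proteins Uqcrc1 and Uqcrc2, which face the matrix, had changes of opposite sign. Uqcrc1 (chr9:108936633-108949623, plus strand) had 137, 141, 174 and 158 FPKM in vehicle replicates 1 to 4 and 122, 123, 138 and 121 FPKM in BPA replicates 1 to 4. Its change, -0.27 (SE 0.120, limma adjusted p = 0.457), was about as large without BPA replicate 4 at -0.25 (SE 0.117, limma adjusted p = 0.520), and only BPA replicate 3 overlapped the vehicle libraries. It varied with the scaling, at -0.11 with GC correction, -0.14 with quantile normalization and -0.33 with libraries scaled to a common FPKM total. Uqcrc2 had 128, 136, 149 and 140.1 FPKM in vehicle replicates 1 to 4 and 157, 151, 158 and 134 FPKM in BPA replicates 1 to 4, with BPA replicates 1 to 3 above every vehicle library and a change of 0.11 (SE 0.110, limma adjusted p = 0.683) with all libraries and 0.17 (SE 0.0924, limma adjusted p = 0.584) without BPA replicate 4.

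The 5 small subunits of complex III were Uqcrb, Uqcrh, Uqcrq, Uqcr10 and Uqcr11. Their median change was -0.49, and -0.15 without BPA replicate 4. Uqcr11, the smallest of the complex, had 132, 99.2, 175 and 134 FPKM in vehicle replicates 1 to 4 and 110.1, 104, 89.3 and 23.1 FPKM in BPA replicates 1 to 4. BPA replicate 4 was at 22.9% of the other BPA libraries, far below every other library, and the change was -0.91 (SE 0.462, limma adjusted p = 0.486). Without BPA replicate 4 it was -0.39 (SE 0.186, limma adjusted p = 0.525). Uqcrb, by contrast, had 122, 107, 162 and 128 FPKM in vehicle replicates 1 to 4 and 159, 158, 140.1 and 69.2 FPKM in BPA replicates 1 to 4, so that BPA replicates 1 to 3 were at the upper end of vehicle and BPA replicate 4 was the lowest library. Its change was -0.036 with all libraries and 0.25 without BPA replicate 4. In Uqcrq, Uqcrh and Uqcr10, BPA replicate 4 stood at 37.2%, 37.8% and 38.3% of the other BPA libraries.

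In complex IV, 15 of 16 tested members were below 0, or 12 of 16 without BPA replicate 4. Cox6a1 (chr5:115345642-115348981, minus strand), the form of subunit 6a found outside muscle, had 649, 564, 768 and 653 FPKM in vehicle replicates 1 to 4 and 563, 548, 531 and 246 FPKM in BPA replicates 1 to 4. Every BPA library was below every vehicle library, and the means were 658 ± 83.9 FPKM for vehicle and 472 ± 151 FPKM for BPA (SD, n = 4 each). The change was -0.55 (SE 0.270, limma adjusted p = 0.478), and without BPA replicate 4 it was -0.26 (SE 0.123, limma adjusted p = 0.527). It was -0.36 with GC correction over all 8 libraries. Over all tested genes, 4.66% had every BPA library below every vehicle library, and 3.23% had every BPA library above. Among the 46 members 3 were below in this way (Cox6a1, Atp5e and Atp5g3) and 0 above, shares near those of all genes. Without BPA replicate 4 the same 3 genes were below (6.1% of all genes) and 2 were above, Uqcrc2 and Cox6c (4.9% of all genes).

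Cox4i1, the main form of the largest nuclear-encoded subunit, had 361, 355, 450.1 and 365 FPKM in vehicle replicates 1 to 4 and 313, 361, 338 and 189.8 FPKM in BPA replicates 1 to 4. Vehicle replicate 3 was high, BPA replicate 4 was low and, of the other BPA libraries, only replicate 2 was in the vehicle range, with a change of -0.38 (SE 0.211, limma adjusted p = 0.506), and of -0.18 without BPA replicate 4. Cox7a2, the form of subunit 7a in most tissues, had 197, 163, 229 and 189 FPKM in vehicle replicates 1 to 4 and 182, 185, 152 and 94.4 FPKM in BPA replicates 1 to 4, with a change of -0.38 (SE 0.224, limma adjusted p = 0.529), and of -0.16 without BPA replicate 4. Cox6c had 72.4, 61.9, 77.2 and 69.9 FPKM in vehicle replicates 1 to 4 and 85.0, 90.4, 78.5 and 26.1 FPKM in BPA replicates 1 to 4. Here BPA replicates 1 to 3 were above every vehicle library and BPA replicate 4 was at 30.9% of their mean, so the change was -0.15 with all libraries and 0.27 (SE 0.107, limma adjusted p = 0.472) without it. In Cox6b1, Cox7b, Cox8a, Cox7c, Cox5a and Cox5b, BPA replicate 4 stood at 27.3%, 31.6%, 49.1%, 47.2%, 53.5% and 73.1% of the other BPA libraries, and the changes without it were between -0.089 and 0.11. Cox7a2l, which takes part in joining complexes III and IV into supercomplexes, was steadier, with 67.2, 61.7, 78.9 and 72.0 FPKM in vehicle replicates 1 to 4 and 74.4, 70.1, 66.5 and 57.7 FPKM in BPA replicates 1 to 4.

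Several complex IV subunits have a second form that is restricted to certain tissues: Cox6a2, Cox7a1 and Cox8b mainly to heart, skeletal muscle and brown fat, Cox4i2 to lung and oxygen-sensing cells, and Cox6b2, Cox7b2 and Cox8c mainly to testis. All were minor here. Cox8b had 0, 9.64, 0.180 and 16.6 FPKM in vehicle replicates 1 to 4 and 1.60, 0, 0.853 and 0 FPKM in BPA replicates 1 to 4, so that most of it was in vehicle replicates 2 and 4, where fat markers were highest. Vehicle replicate 3, with 26.8 FPKM of white fat markers, had 0.180 FPKM of Cox8b. As a share of Cox8a and Cox8b together it took 2.12% and 2.79% there and no more than 0.306% elsewhere. Ucp1, the uncoupling protein of brown fat, reached 7.18 FPKM in the second and 1.41 FPKM in the fourth vehicle library and was listed at 0 in the other 6 libraries. Cidea, a lipid droplet protein of brown fat, had 5.82 and 9.15 FPKM in these 2 libraries and at most 0.347 FPKM elsewhere. The brown fat list as a whole had 3 of 5 markers above 0 in any library, with Elovl3 and Zic1 at 0 throughout, and summed levels of 0 to 13.1 FPKM for vehicle and 0 to 0.363 FPKM for BPA. Cox6a2 was highest in vehicle replicate 4, at 4.74 FPKM, where Acta1, the skeletal muscle actin, was at 103 FPKM and was listed at 0 in the other 7 libraries. The part of muscle or fat in these values was not tested. Cox8b and Cox6a2 gave changes of -1.38 (SE 0.931, limma adjusted p = 0.569) and -0.66 (SE 0.484, limma adjusted p = 0.604). The highest values of Cox8b were in vehicle replicates 4 and 2, and those of Cox6a2 in vehicle replicates 4 and 1.

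Cox7a1 did not follow the muscle and fat markers. It had 8.27, 5.54, 6.04 and 5.81 FPKM in vehicle replicates 1 to 4 and 7.54, 8.74, 11.7 and 4.41 FPKM in BPA replicates 1 to 4, with the highest value in BPA replicate 3 and no excess in vehicle replicate 4. As a share of Cox7a1 and Cox7a2 together it was 4.03, 3.29, 2.57 and 2.98% in vehicle replicates 1 to 4 and 3.97, 4.52, 7.14 and 4.47% in BPA replicates 1 to 4, so that the groups overlapped only through vehicle replicate 1 and BPA replicate 1. The change was 0.24 (SE 0.245, limma adjusted p = 0.695), and without BPA replicate 4 it was 0.47 (SE 0.173, limma adjusted p = 0.456). Cox4i2, Cox6b2 and Cox7b2 had shares of their pairs between 0 and 0.666% in every library.

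**Figure D5:**
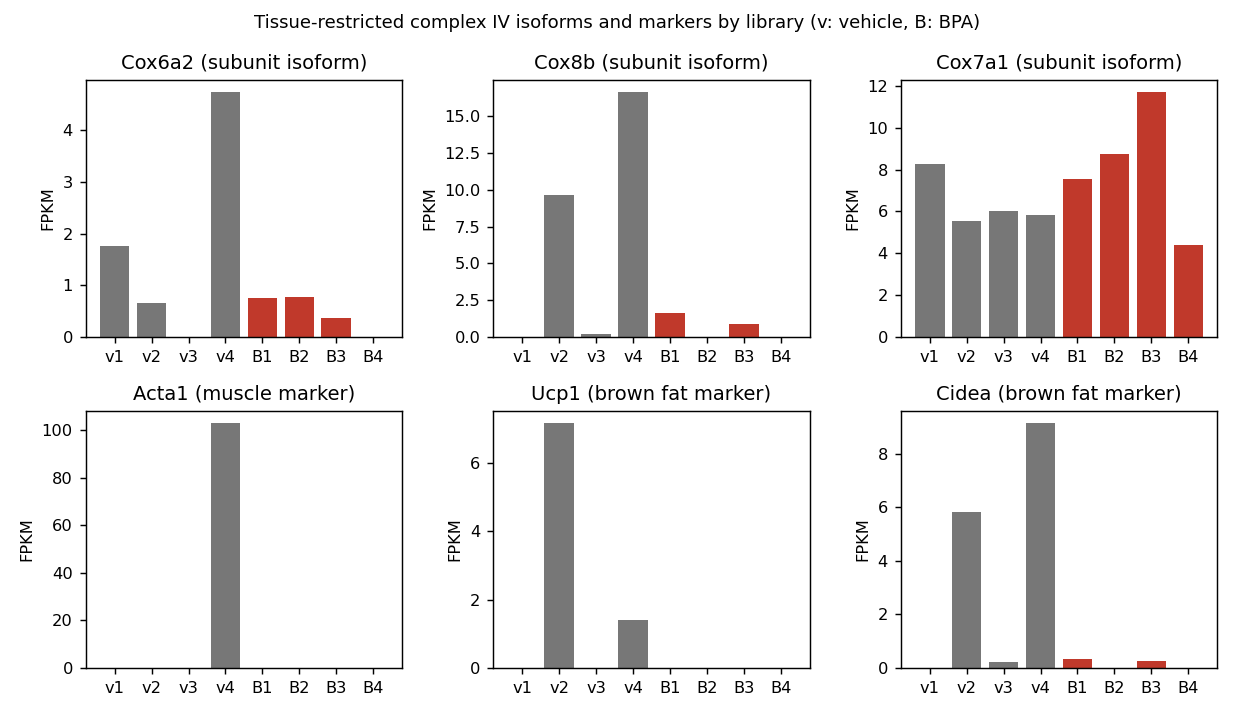
FPKM (y axis) of 3 tissue-restricted complex IV subunit forms (upper row) and of 1 muscle and 2 brown fat markers (lower row) in each library (x axis, v for vehicle and B for BPA, with the replicate number). Cox6a2 and Acta1 are highest in vehicle replicate 4, Cox8b and Cidea in vehicle replicates 2 and 4, and Cox7a1 in BPA replicate 3.

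In complex V the 5 subunits of the F1 part had a median change of -0.14 and the 3 c-ring genes one of -0.45. The 4 peripheral stalk genes had -0.093 and the 4 small membrane subunits -0.19. Without BPA replicate 4 these medians were -0.043, -0.15, 0.026 and 0.033. Atp5a1, with the highest deposited level of all members, had 715, 740.2, 875 and 756 FPKM in vehicle replicates 1 to 4 and 731, 702, 811 and 637 FPKM in BPA replicates 1 to 4, and its change was -0.10 (SE 0.132, limma adjusted p = 0.773), or -0.043 without BPA replicate 4. Atp5b and Atp5c1, the beta and gamma subunits, had changes of -0.14 (SE 0.157) and -0.078 (SE 0.162), which became -0.033 and 0.067 without that library. The differences of the alpha, beta and gamma genes were thus within their SEs, and the delta and epsilon genes of F1 had larger ones. Atp5d, the delta subunit, had 229, 197, 276 and 249 FPKM in vehicle replicates 1 to 4 and 195, 202, 192 and 76.4 FPKM in BPA replicates 1 to 4, a change of -0.60 (SE 0.307, limma adjusted p = 0.487) that was -0.26 without BPA replicate 4.

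Atp5e (chr2:174461072-174464105, minus strand) encodes the epsilon subunit, the smallest of F1. It had 76.0, 63.2, 112 and 87.2 FPKM in vehicle replicates 1 to 4 and 45.9, 52.7, 60.9 and 15.5 FPKM in BPA replicates 1 to 4. Every BPA library was below every vehicle library. The means were 84.5 ± 20.6 FPKM for vehicle and 43.7 ± 19.8 FPKM for BPA (SD, n = 4 each), and the BPA mean was 51.8% of vehicle. The change was -1.06 (SE 0.396, limma adjusted p = 0.408) with all libraries and -0.64 (SE 0.196, limma adjusted p = 0.418) without BPA replicate 4, when BPA replicates 1 to 3 were at 62.9% of vehicle. Atp5e was the member with the smallest p in both fits, and neither passed the adjusted threshold.

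Atp5g3 (chr2:73908447-73911326, minus strand), the most abundant c-ring gene, had 297, 259, 362 and 293 FPKM in vehicle replicates 1 to 4 and 228, 236, 227 and 70.6 FPKM in BPA replicates 1 to 4. The groups did not overlap, and the change was -0.81 (SE 0.372, limma adjusted p = 0.463) with all libraries and -0.38 (SE 0.127, limma adjusted p = 0.423) without BPA replicate 4. Atp5g1 had 27.0, 23.2, 35.0 and 38.5 FPKM in vehicle replicates 1 to 4 and 26.0, 38.1, 37.5 and 22.1 FPKM in BPA replicates 1 to 4, and Atp5g2 had 64.7, 62.8, 77.2 and 76.8 FPKM in vehicle replicates 1 to 4 and 65.6, 61.9, 61.7 and 27.1 FPKM in BPA replicates 1 to 4. As a share of the summed FPKM of the 3 c-ring genes, Atp5g3 was 76.4, 75.1, 76.3 and 71.7% in vehicle replicates 1 to 4 and 71.3, 70.2, 69.6 and 58.9% in BPA replicates 1 to 4. The means were 74.9% ± 2.20 and 67.5% ± 5.76 (SD, n = 4 each), and 70.4% ± 0.869 over BPA replicates 1 to 3 (SD, n = 3). Each BPA library had a lower share than each vehicle library (2-sided exact permutation test, p = 0.0286, the smallest that 70 assignments allow, and 0.0571 after adjustment over the 3 genes). Atp5g1 took 7.62% ± 1.24 in vehicle and 12.4% ± 4.35 in BPA, and Atp5g2 17.5% ± 1.23 and 20.1% ± 1.89 (SD, n = 4 each), with an exact permutation p of 0.0571 for each and the same value after adjustment. The difference for Atp5g3 was -7.37 percentage points with all libraries and -4.51 without BPA replicate 4 (exact permutation test, adjusted p = 0.114). The adjusted p for Atp5g3 was 0.0429 without BPA replicate 1 and 0.0429 without BPA replicate 2 (exact permutation test), and 0.0571 to 0.171 without any of the other libraries in turn. The 3 shares sum to 100%, so they are not separate results, and the adjusted p of 1 share moves with the p of the others.

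A processed pseudogene near-identical to Atp5g1 also held reads. This pseudogene, Gm10039, 99.8% identical to Atp5g1 over 411 bases, held 21.2% to 41.1% of the combined reads, by library. With reads of near-identical pseudogenes added back, an alternative chosen after the data were seen, Atp5g3 took 71.2% ± 1.56 in vehicle and 64.2% ± 6.16 in BPA (SD, n = 4 each, exact permutation test, adjusted p = 0.0429) and Atp5g1 11.3% ± 0.487 and 15.9% ± 4.82 (adjusted p = 0.0429). For Atp5g2 the adjusted p was 0.0857. The unadjusted p of Atp5g3 was at the smallest possible value both before and after this addition. Its adjusted p fell because the groups no longer overlapped for Atp5g1 either, so the lower value is no stronger result for Atp5g3. Of the 49 members, 14 had at least 1 processed pseudogene of 95% identity or more over 200 bases. The share of reads on them was 31.1% for Atp5l, 26.8% for Cox7a2l, 19.1% for Atp5h, 12.3% for Atp5o (1.95% to 29.6% by library), 8.71% for Uqcrb and 4.75% for Atp5g2, so their levels are uncertain. Moreover, 9 of 49 members overlapped another gene with a mean of at least 0.5 FPKM, among them Atp5j with Gabpa on the other strand and Cox4i1 with Emc8. Strandedness of the counting is not given in the sources used here.

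Of the stalk, Atp5h (subunit d) was the only member besides Sdha whose level in BPA replicate 4 was not below the mean of the other BPA libraries, with 127, 109, 154 and 134 FPKM in vehicle replicates 1 to 4 and 132, 132, 129 and 133 FPKM in BPA replicates 1 to 4. With its pseudogene reads added, BPA replicate 4 was -0.052 log2 units from the other BPA libraries. Atp5o, the oligomycin sensitivity protein, had 59.2, 46.1, 77.5 and 55.7 FPKM in vehicle replicates 1 to 4 and 49.5, 48.9, 49.7 and 42.0 FPKM in BPA replicates 1 to 4 and a change of -0.30 (SE 0.159, limma adjusted p = 0.495), or -0.24 without BPA replicate 4. With its pseudogene reads added these were -0.17 and -0.040, and the difference of BPA replicate 4 from the other BPA libraries went from -0.23 to -0.51. Atp5f1 (subunit b) and Atp5j (coupling factor 6) were at 50.4% and 61.9% of the other BPA libraries in BPA replicate 4. The stalk genes thus did not share 1 level in that library. Atp5k, the small membrane subunit e, which helps ATP synthase to form dimers, had 101, 68.0, 108 and 83.1 FPKM in vehicle replicates 1 to 4 and 86.8, 73.0, 31.7 and 5.60 FPKM in BPA replicates 1 to 4. BPA replicates 3 and 4 were the 2 lowest libraries, and the change of -1.38 (SE 0.721, limma adjusted p = 0.492) became -0.59 (SE 0.340, limma adjusted p = 0.598) without BPA replicate 4. Atp5mpl, Atp5j2 and Atp5l had BPA replicate 4 at 39.9%, 71.4% and 49.4% of the other BPA libraries. Atp5s, a coupling factor, was the lowest tested member of complex V, at 7.07 ± 1.44 FPKM for vehicle and 6.69 ± 1.36 FPKM for BPA (SD, n = 4 each).

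Promoters are shown for the 3 members whose groups did not overlap, chosen after their values were seen. The 250 bases before the RefSeq start (GRCm38.p6) are given 5′ to 3′ on the gene's strand, with capitals for matches to the motif letters of regulators of mitochondrial genes: NRF1 (GCGCNTGCGC), ETS factors such as GABPA (CCGGAAG), YY1 (AAGATGGC), oestrogen-related receptors (AAGGTCA) and SP1 (GGGCGG), on either strand. Each set of letters was counted on its own, and no match in the 3 promoters shown overlaps another.
Cox6a1 (chr5:115348959-115349208, minus strand): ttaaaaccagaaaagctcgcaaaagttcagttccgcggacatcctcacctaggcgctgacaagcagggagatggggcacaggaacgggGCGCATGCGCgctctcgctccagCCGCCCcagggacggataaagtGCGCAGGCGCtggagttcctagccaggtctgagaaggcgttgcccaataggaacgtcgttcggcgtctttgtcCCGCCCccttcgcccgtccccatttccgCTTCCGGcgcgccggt
Atp5e (chr2:174464102-174464351, minus strand): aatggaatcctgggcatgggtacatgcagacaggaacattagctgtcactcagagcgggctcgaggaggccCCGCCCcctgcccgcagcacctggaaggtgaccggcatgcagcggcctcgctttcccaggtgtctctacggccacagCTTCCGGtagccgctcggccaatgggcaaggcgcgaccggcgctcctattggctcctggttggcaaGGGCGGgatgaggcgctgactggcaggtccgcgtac
Atp5g3 (chr2:73911327-73911576, minus strand): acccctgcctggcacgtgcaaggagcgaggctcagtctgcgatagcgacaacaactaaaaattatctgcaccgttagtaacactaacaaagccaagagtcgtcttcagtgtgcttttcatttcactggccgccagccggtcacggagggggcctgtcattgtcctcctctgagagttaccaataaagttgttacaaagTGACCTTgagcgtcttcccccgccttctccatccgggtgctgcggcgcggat
Cox6a1 held 2 NRF1, 1 ETS and 2 SP1 matches, Atp5e 1 ETS and 2 SP1 matches, and Atp5g3 1 match to the oestrogen-related receptor letters. RefSeq promoters were matched for 34 of 48 member symbols (37 promoters). NRF1 letters were in 18.9% of these and in 3.74% of 32851 promoters of the table, ETS letters in 24.3% and 6.91%, YY1 letters in 2.70% and 1.56%, oestrogen-related receptor letters in 5.41% and 4.08%, and SP1 letters in 27.0% and 32.7%. A match is a description of the letters and not a binding site.

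Of the mitochondrially encoded partners in complexes III to V, most stood higher in BPA. Of the 6 genes 4 had a change above 0, with a median of 0.39 (0.33 without BPA replicate 4), and none passed the adjusted threshold. mt-Cytb of complex III had 12069.5, 14284, 12794 and 12643 FPKM in vehicle replicates 1 to 4 and 16819, 18631, 17497 and 14681 FPKM in BPA replicates 1 to 4, every BPA library above every vehicle library, with a change of 0.38 (SE 0.143, limma adjusted p = 0.408). mt-Co1, the catalytic subunit of complex IV, had 15184, 18127, 18020.5 and 16093 FPKM in vehicle replicates 1 to 4 and 21463, 19715, 23867 and 33450.1 FPKM in BPA replicates 1 to 4 and a change of 0.52 (SE 0.192, limma adjusted p = 0.408). mt-Atp8 had 2.55 ± 1.10 FPKM for vehicle and 6.56 ± 3.04 FPKM for BPA (SD, n = 4 each), a change of 1.05 (SE 0.333, limma adjusted p = 0.374). The other 2 subunits of complex IV, mt-Co2 and mt-Co3, were at -0.72 and -0.49, and mt-Atp6 was at 0.39, so the direction did not hold for all 6 genes. Of the 7 complex I genes of mitochondrial DNA, 6 were above 0 with a median of 0.62, and the smallest p were those of mt-Nd1, with a change of 0.54 (SE 0.144, limma adjusted p = 0.359), and mt-Nd2, with 0.62 (SE 0.167, limma adjusted p = 0.365).

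The ratio of summed mitochondrially encoded to nuclear-encoded FPKM in complex IV was 5.74, 8.21, 6.40 and 6.10 in vehicle replicates 1 to 4 and 8.66, 7.56, 10.2 and 28.6 in BPA replicates 1 to 4. BPA replicate 4 was far above the rest, and without it BPA was at 8.81 ± 1.33 (SD, n = 3) against 6.61 ± 1.10 in vehicle (SD, n = 4), with overlap. In complex III the ratio was 6.66, 9.15, 6.36 and 7.15 in vehicle and 9.82, 10.9, 10.7 and 17.1 in BPA, and each BPA library was above each vehicle library. In complex V it was 0.0848 ± 0.0249 in vehicle and 0.138 ± 0.0594 in BPA (SD, n = 4 each). The share of all reads from mitochondrial genes was also highest in BPA replicate 4 (14.2%), and its part in these ratios was not tested. Levels of genes of mitochondrial DNA were far apart. Vehicle means were 16856 FPKM for mt-Co1, 654 for mt-Co2, 449 for mt-Co3, 265 for mt-Atp6 and 2.55 for mt-Atp8. The treatment of reads with several matches is not given, so the levels, changes and ratios of these genes are uncertain.

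Other lists of the same pathway place the members among their partners. Nuclear-encoded complex I genes also lay mostly below 0, 34 of 37 with a median of -0.31 (members 41 of 46 and -0.26). Without BPA replicate 4 they were further below 0 than the members, 26 of 37 with a median of -0.15 (members 28 of 46 and -0.047). At an unadjusted p under 0.05 in limma, 5 of 37 were lower in each of these fits, against 6.83% and 6.12% of all tested genes. In 6 of 37 every BPA library was below every vehicle library, against 3 of 46 members and 4.66% of all tested genes. The smallest p values were those of Ndufa2, an accessory subunit with a change of -0.78 (SE 0.201, limma adjusted p = 0.355), and Ndufa8, with -0.34 (SE 0.120, limma adjusted p = 0.393). Ndufa2 had 182, 144, 213 and 171 FPKM in vehicle replicates 1 to 4 and 129.7, 115, 99.6 and 71.6 FPKM in BPA replicates 1 to 4, with all BPA libraries below all vehicle libraries. Assembly factors of complexes II to V were less uneven, with 20 of 31 tested below 0 and a median of -0.060. Cox11, which inserts copper into complex IV, had 3.15, 3.11, 4.63 and 2.99 FPKM in vehicle replicates 1 to 4 and 2.15, 1.58, 2.68 and 1.36 FPKM in BPA replicates 1 to 4 and a change of -0.61 (SE 0.174, limma adjusted p = 0.365), and Cox14 had a change of -0.63 (SE 0.242, limma adjusted p = 0.418) (-0.38 without BPA replicate 4). Tricarboxylic acid cycle genes, 9 of 14 below 0, had a median of -0.040, with Idh3a at 0.18 (SE 0.104, limma adjusted p = 0.527) and Idh2 at -0.32 (SE 0.192, limma adjusted p = 0.532), or -0.15 without BPA replicate 4. These cycle genes have a median transcript of 2474 bases, longer than that of the members.

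A short list of further genes outside the symbol rule had 4 of 4 tested genes (Cycs, Ndufa4, Usmg5 and Atpif1) below 0 (median -0.23). Without BPA replicate 4 it had 1 of 4 below 0 (median 0.12). Usmg5, a subunit of ATP synthase outside the symbol rule, had a change of -0.46 (SE 0.364, limma adjusted p = 0.624), and of -0.052 without BPA replicate 4. Atpif1, the inhibitor of ATP synthase, had -0.28 (SE 0.362, limma adjusted p = 0.769), and 0.13 without that library. Of 15 regulators 8 were below 0, with a median of -0.025. Ppargc1a, a coactivator of mitochondrial gene expression, had 7.12, 8.03, 6.67 and 5.39 FPKM in vehicle replicates 1 to 4 and 8.04, 8.97, 9.56 and 11.4 FPKM in BPA replicates 1 to 4 and a change of 0.43 (SE 0.140, limma adjusted p = 0.374), and the oestrogen-related receptor Esrrg had 0.33 (SE 0.131, limma adjusted p = 0.429). Esrra, another oestrogen-related receptor, had -0.38 (SE 0.151, limma adjusted p = 0.429), below 0. Nrf1, Gabpa and Tfam, which control nuclear or mitochondrial transcription of these subunits, were at -0.036 (SE 0.115, limma adjusted p = 0.912), 0.097 (SE 0.0999, limma adjusted p = 0.704) and 0.0098 (SE 0.125, limma adjusted p = 0.977), each within its SE (-0.070, 0.053 and 0.068 without BPA replicate 4), and the sign changed for Tfam with libraries scaled to a common FPKM total and for Nrf1 with a total that left out mitochondrial genes. No gene of these lists was called at an adjusted p under 0.05 in limma.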

How the data were processed

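The authors deposited 1 table of FPKM (reads scaled by gene length and library size) for 54532 genes, per the file headers. The submitters' processing notes name DESeq2 1.20.0 and GRCm38 and state no role for either. Aligner, counter and the treatment of reads with several matches: not given in the sources used here. Columns headed BPA carry the names of the BPA libraries. Those headed C were assigned to vehicle, since the labels hold no further group, and their number gave the replicate. FPKM multiplied by gene length came out as whole reads, within 0.01 reads, for 100% of low values (up to 20 reads) in every library, with 15944081 to 17351540 reads recovered.

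Changes are differences of mean log2(FPKM + 1), which understate changes of low genes, from limma 3.58.1 (R 4.3.3) with a trended, robust variance over the 13376 genes that averaged 0.5 FPKM or more, with all 8 libraries and no covariate. The p-values were adjusted by Benjamini-Hochberg over all of them, and a gene was called under 0.05. The fit was also run on simulated reads that held no outlying library and no relation to transcript length or GC. That run therefore does not speak to these features of the data. Shares of c-ring genes were compared by a 2-sided exact permutation test over 70 assignments. Transcript length and GC are those of APPRIS principal transcripts of GENCODE M21 (54409 of 54532 identifiers found), by the median where a gene has several. Pseudogenes were found with blastn 2.17.0 (e-value 1e-20).

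The members and lists were chosen with earlier results of these data known. The genes named by rule are the 3 tested members with the smallest p and the highest one in each complex, isoform pairs, the 2 tested genes of each other list with the smallest p, and 5 regulators. Members named beyond this rule were chosen after their values were seen. Replicate numbers did not pair the libraries. Alternatives were another pseudocount, filter, scaling or weighting, a replicate block, limma-voom on recovered reads, corrections for GC and transcript length, and leaving out libraries.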

Additional observations from a re-analysis of the deposited data

Results flagged for a closer look

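Of 56 groups of 4 libraries examined (named members and the sums of the 4 complexes, in each treatment), 10 held a library whose gap to its nearest neighbour was above Dixon's critical value. Chance gives about 1 such group in 20 where groups are independent. These groups share the same libraries, include sums of member genes and hold genes named partly by their p, so they are not independent. In 7 of the 10 the low library was BPA replicate 4. Its values were 110.0 FPKM for Cyc1, 246 FPKM for Cox6a1, 70.6 FPKM for Atp5g3, 76.4 FPKM for Atp5d, 169 FPKM for Uqcrfs1, 27.1 FPKM for Atp5g2 and 859 for the summed FPKM of complex III. Over all 46 tested members, 9 had BPA replicate 4 as such a low value. The share over all tested genes was not computed, so this count has no background. Vehicle replicate 3 was the high library for Sdhc (105 FPKM) and Cox4i1 (450.1 FPKM). BPA replicate 3 was the high library for Uqcrc1 (138 FPKM), where BPA replicate 4 did not stand apart.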

How the results depend on the processing

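No member was called under any of the 21 alternatives. Members below 0 numbered 37 to 44 of 46 under other pseudocounts and scalings, no filter, limma-voom and GC correction, 37 of 42 with a mean of at least 5 FPKM, and 28 to 44 of 46 when 1 library was left out, lowest without BPA replicate 4. They were 30 with library weights, 31 with transcript length correction, 29 without both replicates 4 and 21 with length correction and without BPA replicate 4, where the median was 0.011 and that of complex IV 0.0013. The replicate numbers did not pair the libraries 1 to 1 (correlations of same-numbered deviations 0.137, 0.0190, 0.138 and -0.0329). Vehicle replicates 1 and 2 were at 0.0190 to 0.137 with BPA replicates 1 and 2, and at -0.219 and -0.175 with BPA replicate 3. Vehicle replicates 3 and 4 were at 0.138 and 0.194 with BPA replicate 3, and below 0 with BPA replicates 1 and 2. Whether the numbers stand for batches was not tested. A replicate block left the median at -0.26, with 0 members called and an adjusted p of 0.125 for each c-ring share.

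Some signs were reversed. Sdhd was at 0.086 with library weights, 0.081 without both replicates 4 and 0.097 with length correction and without BPA replicate 4, and at -0.27 to 0.041 when 1 library was left out. Sdhc was at 0.039 and 0.051 in the last 2 of these fits and at -0.18 to 0.048 when 1 library was left out. Atpif1 was at 0.050, 0.18 and 0.21 in these 3 fits, and at -0.45 to 0.13. With length correction and without BPA replicate 4, Uqcrfs1 was at 0.013 and Usmg5 at 0.037. Nrf1 was at 0.0079 with a total that left out mitochondrial genes, 0.016 with GC correction and 0.045 with length correction, and at -0.071 to 0.036 when 1 library was left out. Gabpa was at -0.010 with GC correction. Tfam was at -0.049 with a common total, -0.062 with GC correction and -0.032 with length correction, and at -0.058 to 0.087 when 1 library was left out. None of these genes passed the threshold in any fit.

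Leaving out 1 library in turn, the difference of c-ring shares (BPA minus vehicle, percentage points) ranged from 2.71 to 6.15 for Atp5g1, from 1.80 to 3.19 for Atp5g2 and from -8.64 to -4.51 for Atp5g3, in each case smallest without BPA replicate 4. The adjusted p of the exact permutation test was 0.0429 for Atp5g1 without BPA replicate 1, for Atp5g2 without BPA replicate 2 and for Atp5g3 without either of these. With pseudogene reads added the differences were 4.63 for Atp5g1 and -7.00 for Atp5g3. The causes were not tested.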
